A study of Mus musculus with 15 samples.

Results

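Oxysterols are cholesterol molecules that carry an extra hydroxyl or keto group, and 9 genes of their synthesis, breakdown and sensing were followed in sorted lymphatic endothelial cells: Ch25h, Cyp27a1, Cyp7b1, Cyp39a1, Hsd3b7, Hsd11b1, Sult2b1, Gpr183 and Soat1. The genes were taken by name, by their place in the pathway, from a table of raw counts for 21839 genes. All 9 were found, and all 9 passed the filter on low counts, beside 13887 genes tested in all. The cells came from C57BL/6 mice aged 10 weeks that carried a transplanted mouse melanoma line described as lymphangiogenic. Cells of 3 places were compared with 5 libraries each: the tumor (Tumor), the lymph node that drains it (TdLN) and a lymph node that does not (NdLN). All 3 groups, NdLN included, come from mice with tumors, and animals without a tumor are not analysed here. The sort took cells negative for CD45, a leukocyte protein, and carrying both CD31 (from Pecam1) and gp38 (from Pdpn). The labels do not say which melanoma line was used, or whether a library is 1 animal or a pool, so p-values measure only the spread between these libraries.

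As background, 25-hydroxycholesterol is made from cholesterol by CH25H, an enzyme of the endoplasmic reticulum, and 27-hydroxycholesterol by CYP27A1, a mitochondrial cytochrome P450. CYP7B1 adds a hydroxyl at carbon 7 and so turns 25-hydroxycholesterol into the ligand of GPR183, also called EBI2, a receptor by which B cells, T cells and dendritic cells find their places in lymphoid tissue. HSD3B7 oxidizes and inactivates that ligand, and stromal cells of lymph nodes are known to set its gradients. Oxysterols also bind LXR nuclear receptors and INSIG proteins, and sulfation by SULT2B1 or esterification by SOAT1 takes sterols out of these pools.

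Libraries held 23830337 to 34577494 counts in Tumor, 32134127 to 37043976 in TdLN and 31894931 to 37437282 in NdLN. Levels are given as CPM, reads of a gene per 1e6 reads of the library, scaled with TMM factors, as mean ± SD over 5 libraries. Prox1, the transcription factor that keeps lymphatic identity, was present in every library, at 105 ± 22.7 CPM in Tumor, 539 ± 74.9 in TdLN and 766 ± 52.9 in NdLN. The 15 lymphatic markers together held 0.497% ± 0.0748 of all counts in Tumor, 0.981% ± 0.0977 in TdLN and 1.07% ± 0.0994 in NdLN libraries. Of these 15 genes 10 fell and 2 rose in Tumor against TdLN libraries, and 9 fell and 2 rose against NdLN. Ccl21a, a chemokine gene of lymphatics, was at 1227 ± 367 CPM in Tumor, 135 ± 71.0 in TdLN and 105 ± 33.7 in NdLN libraries, and Pdpn at 116 ± 46.4 CPM in Tumor, 120 ± 15.4 in TdLN and 124 ± 20.7 in NdLN. The tumor libraries stood apart in transcripts of other cells. There 8 pigment cell genes held 2.65% to 4.12% of all counts, against 0.00117% to 0.00325% in TdLN and 0.00169% to 0.00359% in NdLN libraries. The 11 fibroblast and reticular genes held 0.144% to 1.08% in Tumor, 0.016% to 0.043% in TdLN and 0.0276% to 0.0602% in NdLN libraries. The 12 macrophage and monocyte genes held 0.0158% to 0.03% in Tumor, 0.00752% to 0.0156% in TdLN and 0.00685% to 0.0115% in NdLN libraries. None of the genes of these 3 lists was at 0 in all libraries of a group. Every difference between tumor and node below moves with these shares, and their part in it was not tested. In sorted bulk RNA, fewer cells of a type and less RNA per cell cannot be told apart.

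The promoters of Ch25h, Hsd11b1 and Soat1 are shown because these 3 had the highest CPM in tumor libraries of the 5 genes that were higher there than in both nodes, and Ch25h alone of the 9 also changed between the nodes. Of the 9 genes 7 had a promoter in the RefSeq set of build GRCm38.p6, which spans 250 bases before to 50 bases after a start site. Capitals mark matches to 9 motifs searched on both strands: the TATA box as TATAAA, the CCAAT box, the GC box as GGGCGG, the AP-1 site as TGANTCA, the cAMP response element as TGACGTCA, the interferon response core as GAAANNGAA, the E-box as CACGTG, the hypoxia response core as ACGTG, which lies within the E-box, and the sterol response element as TCACNCCAC. The windows are chr19:34475099-34475398 for Ch25h, chr1:193242311-193242610 for Hsd11b1 and chr1:156474279-156474578 for Soat1, each on the minus strand and written 5′ to 3′. The Hsd11b1 window lies within the annotated gene, which spans 193221634 to 193264075. It therefore belongs to an internal start site and not to the annotated 5′ end.
Ch25h: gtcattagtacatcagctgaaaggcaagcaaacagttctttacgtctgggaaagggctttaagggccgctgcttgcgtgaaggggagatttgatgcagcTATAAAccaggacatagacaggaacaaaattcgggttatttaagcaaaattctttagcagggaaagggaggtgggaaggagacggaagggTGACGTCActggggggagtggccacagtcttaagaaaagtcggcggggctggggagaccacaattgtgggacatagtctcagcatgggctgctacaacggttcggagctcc
Hsd11b1: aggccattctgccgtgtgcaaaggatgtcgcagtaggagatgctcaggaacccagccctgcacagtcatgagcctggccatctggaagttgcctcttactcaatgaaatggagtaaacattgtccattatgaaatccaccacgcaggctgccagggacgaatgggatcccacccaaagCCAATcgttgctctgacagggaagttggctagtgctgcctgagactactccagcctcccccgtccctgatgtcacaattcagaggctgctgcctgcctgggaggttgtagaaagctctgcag
Soat1: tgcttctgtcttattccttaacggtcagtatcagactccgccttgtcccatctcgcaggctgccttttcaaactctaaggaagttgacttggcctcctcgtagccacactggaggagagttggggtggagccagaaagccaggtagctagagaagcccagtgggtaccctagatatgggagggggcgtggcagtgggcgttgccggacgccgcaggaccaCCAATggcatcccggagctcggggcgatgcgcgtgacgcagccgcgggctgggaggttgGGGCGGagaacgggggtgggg
The Ch25h window held TATAAA, which began 151 bases before the start site, farther than a working TATA box usually lies, and is present in 13.6% of all 32851 promoters of the set. It also held the full palindrome TGACGTCA, which began 61 bases before the start site and is present in 1.79% of them. The Hsd11b1 and Soat1 windows each held CCAAT, as 37.4% of promoters do, and Soat1 also GGGCGG, as 35.7% do. A match describes letters in a window and is not evidence that a factor bound there.

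The first comparison set lymphatic endothelium of the draining node against that of the non-draining node. Of the 9 genes 1 changed, Ch25h, which fell in TdLN libraries. Its levels were 12.0, 13.8, 15.8, 14.6 and 15.9 CPM in TdLN libraries 1 to 5, against 33.5, 33.5, 45.0, 40.3 and 28.6 CPM in NdLN libraries 1 to 5. The highest TdLN library was below the lowest NdLN library. In edgeR's quasi-likelihood test the log2 fold change was -1.32 ± 0.16 (SE, adjusted p = 0.00111), a level 2.50 times lower in TdLN, and the call held whichever library was left out (adjusted p = 0.000955 to 0.0064). Ch25h, ENSMUSG00000050370, lies on chromosome 19 from 34473778 to 34475164 on the minus strand of GRCm38 and has 1 exon. That exon overlaps a noncoding gene on the other strand, Gm26902, and reads of both cannot be told apart in counts made without strand. Blood endothelium also carries CD31, and of 13 blood endothelial and venule genes 3 were lower and 0 higher in TdLN libraries in the same test. Among them Emcn was at 56.3 ± 11.4 CPM in TdLN against 131 ± 20.3 in NdLN libraries, and Vwf at 14.3 ± 3.20 CPM in TdLN against 38.8 ± 11.6 in NdLN libraries. The 13 genes together held 0.351% to 0.759% of counts in TdLN and 0.346% to 0.624% in NdLN libraries, and none was at 0 in all libraries of a node. Most of that share came from Plvap and Glycam1, which were not called and had higher means in TdLN. Plvap was at 3325 ± 1993 CPM in TdLN and 2501 ± 1942 in NdLN libraries, Glycam1 at 2022 ± 278 in TdLN and 1454 ± 526 in NdLN. Of the 15 lymphatic genes 1 was higher and 0 lower in TdLN libraries. The part of blood endothelial RNA in the Ch25h difference was not tested.

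The call of 1 lower and 0 higher among 9 stands beside 1.64% of all tested genes called lower and 1.84% called higher, 3.49% in both directions, in this comparison. The count of all called genes, 484, dropped to 225 with TdLN 1 left out, to 258 with TdLN 2 and to 315 with TdLN 3 left out. It was 245 if NdLN 2 was left out, 307 for NdLN 3, 277 for NdLN 4 and 319 for NdLN 5. The median log2 fold change of the 9 genes was 0.14, against -0.01 over all tested genes.

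The other 8 genes did not pass, which does not show that they were equal in the nodes. Sult2b1, the sulfotransferase, came nearest to a clear separation in the upward direction, with 9.86 to 15.3 CPM in TdLN against 3.77 to 9.44 CPM in NdLN libraries. The ranges of Sult2b1 did not overlap, as was the case for 2 of the 9 genes and for 7.83% of all genes tested, but its log2 fold change of 0.79 ± 0.28 did not pass (edgeR adjusted p = 0.158). Gpr183 was near the limit of detection in both nodes, with 0.127 to 0.952 CPM in TdLN and 0.51 to 2.70 CPM in NdLN libraries, which overlap. Its log2 fold change of -1.59 ± 0.50 did not pass in edgeR (adjusted p = 0.106), and it passed in DESeq2 (-1.61 ± 0.50, adjusted p = 0.0237). For the enzymes of both 7-alpha-hydroxylation steps, Cyp7b1 had a log2 fold change of 0.40 ± 0.38 and Cyp39a1 of -0.05 ± 0.15. Hsd3b7 (0.24 ± 0.13), Soat1 (0.35 ± 0.14), Cyp27a1 (0.14 ± 0.51) and Hsd11b1 (-0.06 ± 0.20) overlapped between the nodes as well. The edgeR adjusted p of these 6 genes ran from 0.198 to 0.919. These SE come from a fit that shares 1 estimate of spread among all 3 groups, Tumor included. With only the node libraries fitted, Cyp7b1 had 0.41 ± 0.17 (edgeR adjusted p = 0.173) and Cyp27a1 0.15 ± 0.25 (0.768), again without passing.

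In the nodes, Gpr183 was read beside leukocyte genes, since B cells express it. NdLN libraries 1 to 5 had 0.51, 2.4, 1.64, 2.70 and 1.50 CPM of Gpr183. The same libraries had 0.542, 1.83, 7.41, 2.47 and 3.70 CPM of Ms4a1, the B-cell gene of CD20, and 0.383, 2.67, 8.77, 6.51 and 8.80 CPM of Ptprc, the gene of CD45. NdLN 1 was lowest in all 3, while the highest was NdLN 4 for Gpr183, NdLN 3 for Ms4a1 and NdLN 5 for Ptprc. The 7 B-cell genes of the marker list held 0.00173% to 0.00373% of counts in TdLN and 0.00193% to 0.00646% in NdLN libraries, with no gene at 0 in all libraries of a node, and the part of such cells in the Gpr183 level was not tested. The dendritic cell list held 0.055% to 0.0667% in TdLN and 0.044% to 0.0621% in NdLN libraries, and its genes Flt3 and Cd209a were at 0 in all TdLN libraries. Most of that share was 1 gene, Irf8, at 514 ± 66.6 CPM in TdLN and 443 ± 70.2 in NdLN libraries. In each node 5 of the 9 genes of the list averaged under 1 CPM, so the share is a poor measure of dendritic cell RNA.

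**Figure D1:**
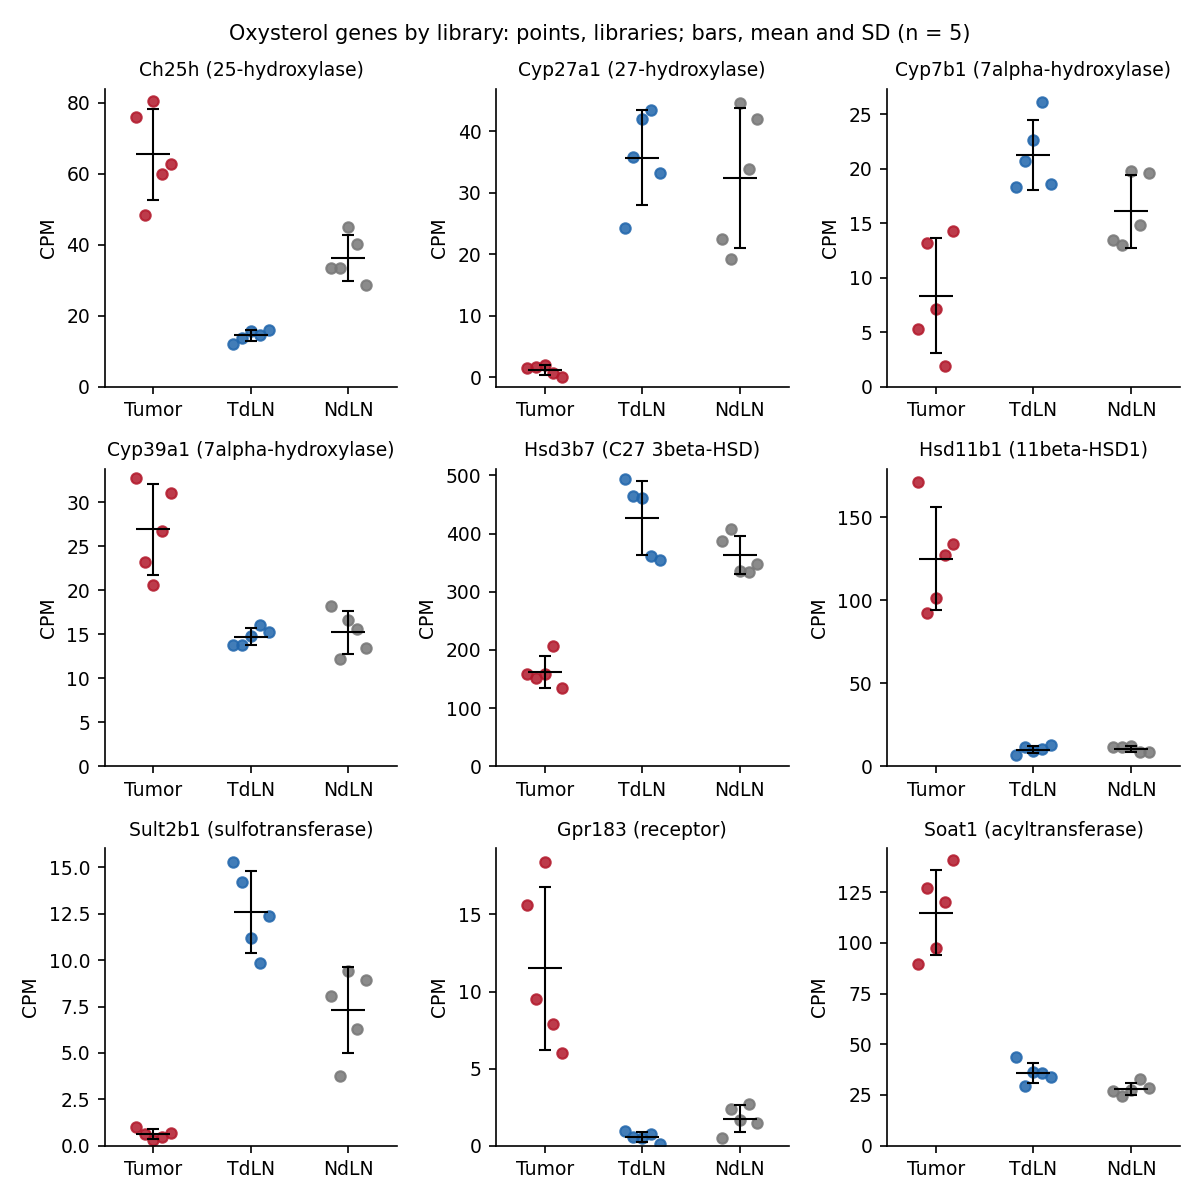
Level of each of the 9 genes (vertical axis, CPM) in the Tumor, TdLN and NdLN libraries, with 1 point per library and bars for mean and SD of 5 libraries. In Ch25h and Sult2b1 the 3 groups do not overlap, and Ch25h is highest in Tumor (48.3 to 80.5 CPM) and lowest in TdLN (12.0 to 15.9 CPM).

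The other comparisons set cells sorted from the tumor against those of each node. All 9 genes changed, 5 upward and 4 downward. The 25-hydroxylase Ch25h, the reductase Hsd11b1, the acyltransferase Soat1, the receptor Gpr183 and the hydroxylase Cyp39a1 were higher in tumor libraries than in either node. The hydroxylases Cyp27a1 and Cyp7b1, the inactivating enzyme Hsd3b7 and the sulfotransferase Sult2b1 were lower. Against TdLN, 5 of 9 rose and 4 fell, where 31.9% of all tested genes rose and 30.1% fell, 62.0% in all. Against NdLN, the counts were again 5 and 4, where 34.0% of all tested genes rose and 32.5% fell, 66.5% in all. Since most genes differ between tumor and node libraries, 9 calls of 9 say little that is particular to these genes. Both comparisons share the Tumor libraries, and they are given side by side.

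Among the enzymes that make the first oxysterols, Ch25h had 76.0, 48.3, 80.5, 60.1 and 62.7 CPM in Tumor libraries 1 to 5, above every node library. The log2 fold change was 2.18 ± 0.16 against TdLN (edgeR adjusted p = 2.06e-08) and 0.86 ± 0.16 against NdLN (edgeR adjusted p = 0.000175). The order of the 3 groups was therefore Tumor, NdLN and TdLN, and each neighbour in that order differed from the next in the test. Cyp27a1 went the other way, with 1.47, 1.65, 1.97, 0.776 and 0 CPM in Tumor libraries 1 to 5, against 24.3 to 43.5 CPM in TdLN and 19.2 to 44.6 CPM in NdLN libraries. Tumor 5 held no Cyp27a1 read, where 3 reads, the limit that a count of 0 allows, would be 0.0869 CPM. Cyp27a1 (chromosome 1, 74713574 to 74737892) had a log2 fold change of -4.93 ± 0.61 against TdLN (edgeR adjusted p = 5.74e-06) and of -4.78 ± 0.61 against NdLN (edgeR adjusted p = 5.90e-06). So the genes of both side-chain hydroxylases moved in opposite directions in tumor libraries.

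The 7-alpha-hydroxylase genes also moved apart. Cyp7b1, which acts on 25- and 27-hydroxycholesterol, averaged 8.36 ± 5.30 CPM in Tumor, 21.3 ± 3.21 in TdLN and 16.1 ± 3.35 in NdLN libraries. Cyp39a1, which acts mainly on 24-hydroxycholesterol, averaged 26.9 ± 5.15 CPM in Tumor, 14.7 ± 0.972 in TdLN and 15.2 ± 2.42 in NdLN libraries. Cyp7b1 (chromosome 3, 18071950 to 18243338) had a log2 fold change of -1.34 ± 0.39 against TdLN (edgeR adjusted p = 0.00704) and of -0.95 ± 0.38 against NdLN (edgeR adjusted p = 0.0403). Its Tumor and TdLN libraries did not overlap, while its Tumor and NdLN libraries did. The fall against NdLN no longer passed without Tumor 1, Tumor 3, NdLN 3, NdLN 4 or NdLN 5 (adjusted p = 0.091, 0.0821, 0.0795, 0.0527 and 0.0792), or when only those 10 libraries were fitted (0.0732). Cyp39a1 (chromosome 17, 43667425 to 43751431) rose by 0.87 ± 0.15 against TdLN and by 0.82 ± 0.15 against NdLN (edgeR adjusted p = 0.000149 and 0.000204), with no overlap of the tumor with either node.

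Cyp7b1 was the gene of the 9 with the widest spread among tumor libraries in which it was detected throughout, with 5.28, 13.2, 7.11, 1.87 and 14.3 CPM in Tumor 1 to 5, a ratio of 7.66 between highest and lowest. Its ratio was 1.42 within TdLN and 1.53 within NdLN libraries. In the same 5 tumor libraries the fibroblast and reticular list held 0.144%, 0.729%, 0.47%, 0.298% and 1.08% of counts. Tumor 2 and Tumor 5 were the highest in both and Tumor 1 and Tumor 4 the lowest in both. Pdgfra, a fibroblast receptor gene, was at 9.75, 51.2, 23.1, 7.64 and 26.5 CPM. Against TdLN libraries 8 of the 11 genes of that list rose and 1 fell, and against NdLN 6 rose and 1 fell. The part of fibroblast RNA in the Cyp7b1 level was not tested.

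Genes of oxidation and sulfation were both lower in the tumor. Hsd3b7 had 158, 152, 159, 207 and 134 CPM in Tumor libraries 1 to 5, against 355 to 494 CPM in TdLN and 334 to 408 CPM in NdLN libraries. The tumor libraries were all lower, with a log2 fold change of -1.40 ± 0.13 against TdLN (edgeR adjusted p = 2.14e-07) and of -1.17 ± 0.13 against NdLN (edgeR adjusted p = 1.19e-06). Hsd3b7 (chromosome 7, 127800604 to 127803802) shares exon sequence with Gm49388, a longer gene on the same strand, so part of its reads may be split or lost. Its exons also overlap 9430064I24Rik on the other strand, which likewise has no row in the counts. Sult2b1 had 0.983, 0.656, 0.309, 0.489 and 0.695 CPM in the same tumor libraries, from 11 to 25 counts each. Its log2 fold change was -4.34 ± 0.33 against TdLN (edgeR adjusted p = 2.94e-08) and -3.55 ± 0.32 against NdLN (edgeR adjusted p = 1.59e-07), and no tumor library overlapped a node library. Sult2b1 (chromosome 7, 45729983 to 45784669) overlaps Lmtk3 on the other strand, which was at most 0.367 CPM in any library. An antisense gene, Gm31597, also overlaps its exons and has no row in the counts, so its level is not known.

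Hsd11b1 encodes 11-beta-hydroxysteroid dehydrogenase type 1, which regenerates active glucocorticoid and also reduces 7-ketocholesterol. It had 171, 92.5, 101, 127 and 134 CPM in Tumor libraries 1 to 5, against 6.47 to 12.5 CPM in TdLN and 8.40 to 11.9 CPM in NdLN libraries. The lowest tumor library was several-fold above every node library. The log2 fold change was 3.65 ± 0.22 against TdLN, a level 12.5 times as high (edgeR adjusted p = 1.69e-09), and 3.59 ± 0.21 against NdLN (edgeR adjusted p = 1.73e-09). H6pd, which supplies this enzyme with NADPH in the endoplasmic reticulum, moved the other way. It was at 20.8, 61.2, 30.9, 26.7 and 27.3 CPM in Tumor libraries 1 to 5, against 114 to 266 CPM in TdLN and 163 to 311 CPM in NdLN libraries. The log2 fold change of H6pd was -2.51 ± 0.30 against TdLN and -2.77 ± 0.30 against NdLN (edgeR adjusted p = 3.51e-06 and 1.15e-06).

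Soat1, whose enzyme esterifies cholesterol and oxysterols for storage, had 89.8, 127, 97.7, 120 and 141 CPM in Tumor libraries 1 to 5, against 29.5 to 43.6 CPM in TdLN and 24.6 to 32.9 CPM in NdLN libraries. All tumor libraries were above all node libraries, with a log2 fold change of 1.69 ± 0.14 against TdLN (edgeR adjusted p = 7.12e-08) and of 2.03 ± 0.14 against NdLN (edgeR adjusted p = 8.79e-09). Soat1 lies on chromosome 1 from 156424525 to 156474331.

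Gpr183, the receptor for the product of Ch25h and Cyp7b1, had 15.6, 9.50, 18.4, 7.87 and 6.00 CPM in Tumor libraries 1 to 5, all above the node libraries. Its log2 fold change was 4.30 ± 0.54 against TdLN (edgeR adjusted p = 6.52e-06) and 2.71 ± 0.50 against NdLN (edgeR adjusted p = 0.000202). Macrophages express this receptor, and 10 of 12 macrophage and monocyte genes rose against TdLN and 1 fell, while 9 rose and 1 fell against NdLN. Adgre1, the macrophage gene of F4/80, was at 6.63, 7.24, 3.74, 3.51 and 1.91 CPM in Tumor libraries 1 to 5, against at most 0.115 CPM in TdLN and 0.128 CPM in NdLN libraries. Tumor 3 was highest in Gpr183 and Tumor 2 in Adgre1, while Tumor 5 was lowest in both. Csf1r, of the same list, went the other way, highest in Tumor 5 at 17.0 CPM and lowest in Tumor 3 at 2.81 CPM. The share of the whole list was highest in Tumor 1 (0.03%) and lowest in Tumor 4 (0.0158%). Whether the Gpr183 reads came from such cells was not tested. Gpr183 (chromosome 14, 121952551 to 121965195) lies on the opposite strand within the span of Ubac2, with no shared exon sequence.

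Tumor and node libraries did not overlap for 9 of 9 genes against TdLN, where 46.6% of all tested genes did not, and for 8 of 9 against NdLN, where 54.6% did not. The exception was Cyp7b1. The median log2 fold change of the 9 genes was 0.87 against TdLN and 0.82 against NdLN, beside 0.04 over all tested genes in both comparisons.

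**Figure D2:**
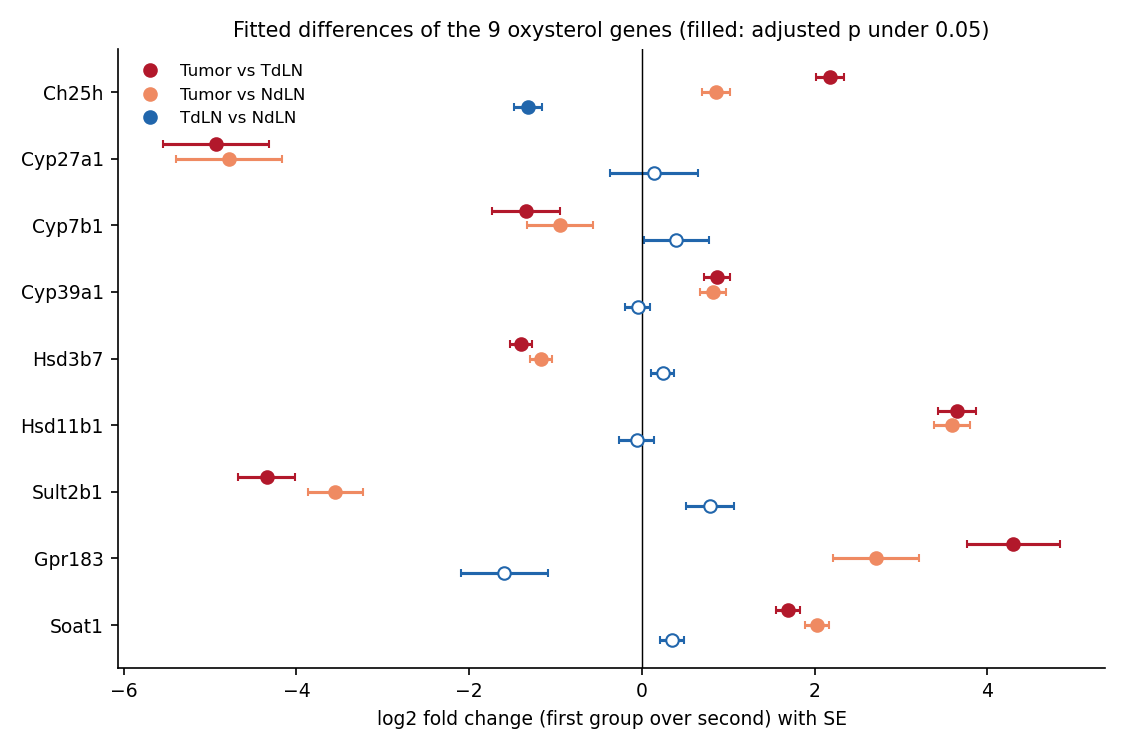
Fitted log2 fold change with SE (horizontal axis) of the 9 genes in the 3 comparisons, first group over second, with filled points at an adjusted p under 0.05. Against TdLN, Gpr183 (4.30) and Cyp27a1 (-4.93) mark the ends of the range, and between the nodes only Ch25h is filled.

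Levels of different genes were compared per kb of exon, since a longer transcript gives more reads. On this scale Hsd3b7 was the highest of the 9 in every group, at 58.4 ± 9.77 CPM per kb in Tumor, 154 ± 23.2 in TdLN and 131 ± 12.0 in NdLN libraries. Ch25h came next in Tumor, at 47.2 ± 9.31 CPM per kb, and in NdLN libraries, at 26.1 ± 4.67. In TdLN libraries Ch25h, at 10.4 ± 1.16 CPM per kb, was below Cyp27a1, at 16.4 ± 3.54, and close to Cyp7b1, at 9.81 ± 1.48. Hsd11b1 followed in Tumor libraries, at 29.4 ± 7.26 CPM per kb, while it was at 2.35 ± 0.539 in TdLN and 2.45 ± 0.43 in NdLN libraries. The lowest of the 9 per kb was Sult2b1 in Tumor (0.159 ± 0.0636) and Gpr183 in TdLN (0.2 ± 0.109) and NdLN (0.606 ± 0.297). Exon length was the union over all annotated transcripts, which understates genes whose longest transcripts are rare.

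**Figure D3:**
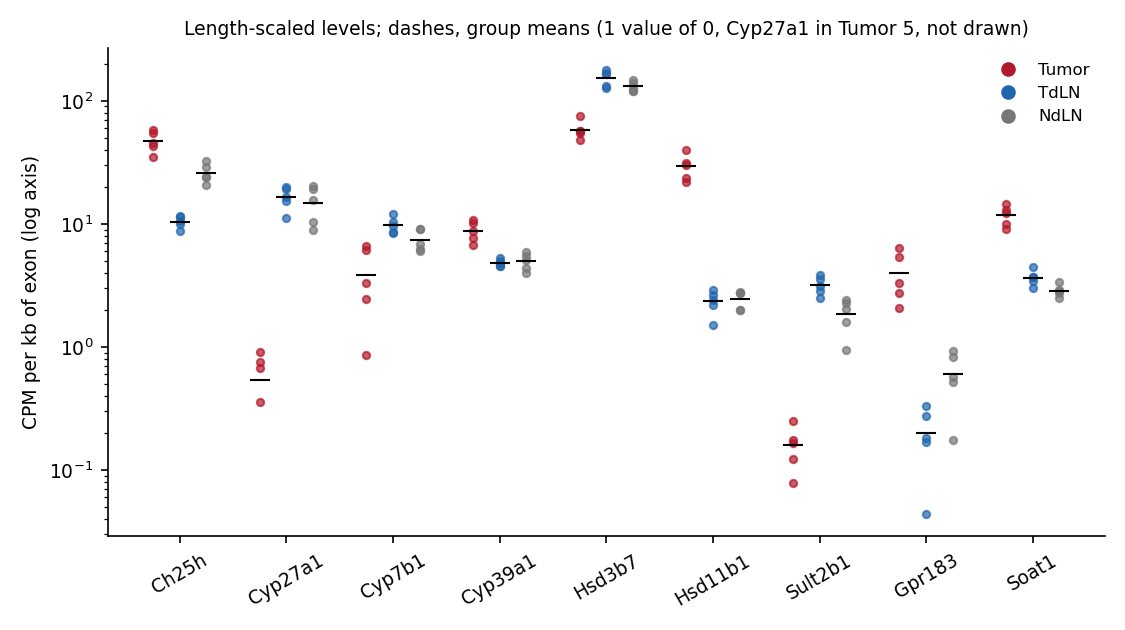
Level per kb of exon (vertical log axis, CPM per kb) of the 9 genes in Tumor, TdLN and NdLN libraries, with 1 point per library and dashes for group means. Hsd3b7 has the highest mean in each group (58.4 in Tumor, 154 in TdLN and 131 in NdLN), and the point of Tumor 5 for Cyp27a1 is left out because it is 0.

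Ratios of 2 genes within a library need no scaling between libraries, and they are given as descriptions. The count of Ch25h over that of Cyp7b1, the genes of both steps to the GPR183 ligand, was 14.4, 3.65, 11.3, 32.2 and 4.38 in Tumor libraries 1 to 5, 0.562 to 0.855 in TdLN and 1.46 to 2.72 in NdLN libraries. The 3 groups did not overlap. So raw counts of Ch25h, not divided by exon length, were below those of Cyp7b1 in each TdLN library and above them in every other library. Per kb of exon, Ch25h was instead above Cyp7b1 in TdLN libraries 1, 2, 3 and 5. The levels there were 8.68 against 8.46, 9.97 against 9.54, 11.4 against 10.4 and 11.5 against 8.59 CPM per kb. Only in TdLN 4 was Ch25h below, at 10.6 against 12.0 CPM per kb. The order of both genes in TdLN libraries therefore depends on the scale. The count of Cyp7b1 over that of Hsd3b7, the gene of the inactivating step, overlapped between the groups, with medians of 0.0448 in Tumor, 0.049 in TdLN and 0.0442 in NdLN libraries. Within tumor libraries it ran from 0.00904 to 0.107. Ch25h over Soat1 was 0.38 to 0.846 in Tumor and 0.276 to 0.473 in TdLN libraries, which overlap, and 1.00 to 1.63 in NdLN libraries, above both.

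Per count of Prox1, Ch25h was at 0.433 to 1.03 in Tumor, 0.0237 to 0.0313 in TdLN and 0.037 to 0.0571 in NdLN libraries. The order of the groups on this scale is the same as in CPM, and the gap between tumor and nodes is wider because Prox1 itself was lower in tumor libraries. Cyp39a1 per count of Prox1 was likewise 0.156 to 0.447 in Tumor against 0.0236 to 0.0313 in TdLN and 0.0151 to 0.027 in NdLN libraries. Only genes that rose in tumor libraries were divided by Prox1. Hsd3b7, which fell in CPM, averaged 162 CPM in Tumor libraries, above Prox1 at 105 CPM. In TdLN libraries Hsd3b7 averaged 427 against 539 CPM of Prox1, and in NdLN libraries 363 against 766 CPM. Relative to Prox1, mean Hsd3b7 was thus higher in Tumor than in either node. The same held for mean Cyp7b1, at 8.36 CPM in Tumor, 21.3 in TdLN and 16.1 in NdLN libraries. Tumor 4 was an exception, with 1.87 CPM of Cyp7b1 and 115 CPM of Prox1. Mean Cyp27a1 (1.17 CPM in Tumor, 35.7 in TdLN, 32.4 in NdLN) stayed lower in Tumor relative to Prox1. So did mean Sult2b1 (0.626 CPM in Tumor, 12.6 in TdLN, 7.30 in NdLN).

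**Figure D4:**
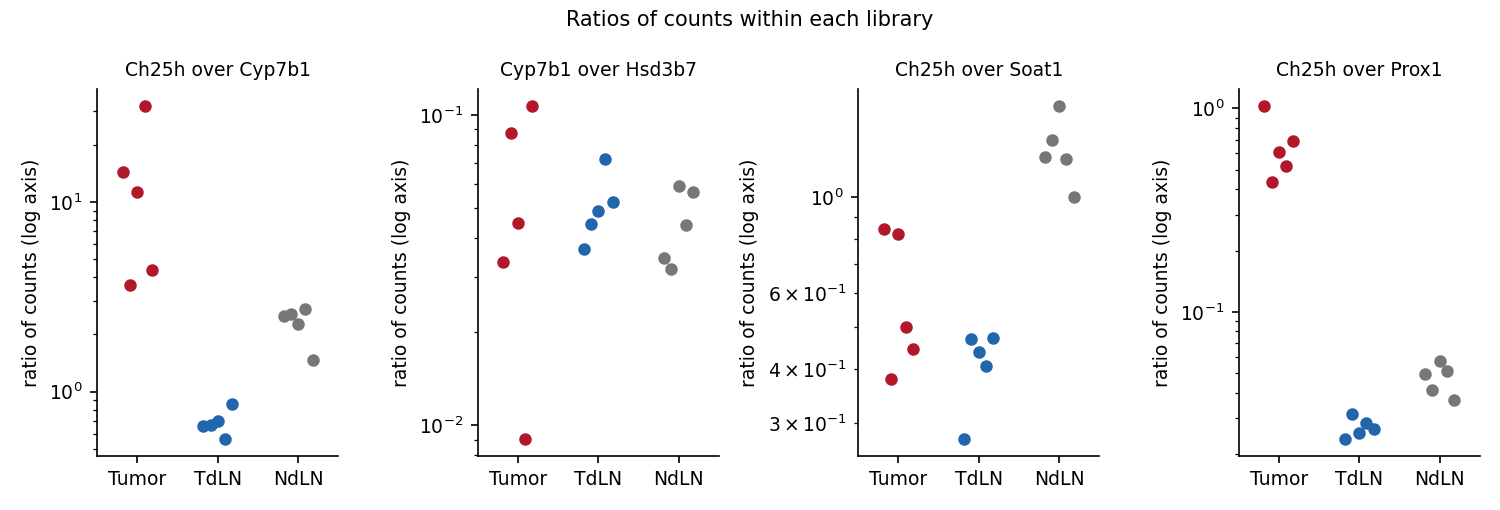
Ratios of raw counts within each library (vertical log axes) in Tumor, TdLN and NdLN libraries, with 1 point per library. Ch25h over Cyp7b1 separates the 3 groups (3.65 to 32.2 in Tumor, 0.562 to 0.855 in TdLN and 1.46 to 2.72 in NdLN), whereas Cyp7b1 over Hsd3b7 overlaps between them.

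The wider pathway was read from 6 lists with 58 genes, of which 48 passed the filter. Between the nodes 1 of the 48 rose and 1 fell, near the shares over all genes given above. Cyp8b1, the sterol 12-alpha-hydroxylase of bile acid synthesis, rose to 9.99 ± 3.52 CPM in TdLN, against 4.40 ± 1.04 in NdLN libraries (log2 fold change 1.18 ± 0.30, edgeR adjusted p = 0.0425), although the groups overlapped. This call was lost without NdLN 1, NdLN 2, NdLN 3, NdLN 4, NdLN 5, TdLN 1, TdLN 2 or TdLN 3 (edgeR adjusted p = 0.0648 to 0.109). Ephx1, microsomal epoxide hydrolase, fell to 217 ± 58.3 CPM in TdLN, against 408 ± 63.4 in NdLN libraries, with no overlap (-0.91 ± 0.20, edgeR adjusted p = 0.0205). Its call was lost without NdLN 2 (0.0596) or TdLN 3 (0.0513). Against TdLN 15 of the 48 rose and 16 fell in Tumor libraries, and against NdLN 15 rose and 18 fell, shares close to those over all genes.

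Oxysterol-binding proteins, a family that senses and moves sterols at membrane contacts, had 7 of 12 genes lower and 3 higher in tumor libraries against TdLN, where 30.1% of all tested genes fell and 31.9% rose. Against NdLN 7 were lower and 2 higher, where 32.5% of all tested genes fell and 34.0% rose. The list was not tested as a set. Osbpl5 was at 19.9 ± 7.22 CPM in Tumor and 144 ± 15.1 in TdLN libraries, Osbpl9 at 110 ± 8.32 CPM in Tumor and 233 ± 16.7 in TdLN libraries. Osbpl1a rose, at 47.2 ± 8.38 CPM in Tumor against 12.3 ± 2.39 in TdLN libraries (log2 fold change 1.94 ± 0.20). Between the nodes 0 of the 12 changed.

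Of 15 other sterol sensors, 4 rose and 3 fell against TdLN, and 5 rose and 5 fell against NdLN, near or below the shares over all genes just given. Insig1, whose protein binds oxysterols and holds back SREBP, had 184 to 203 CPM in Tumor libraries, against 12.2 to 35.2 CPM in TdLN and 17.1 to 41.2 CPM in NdLN libraries (log2 fold change 3.09 ± 0.26 against TdLN). Npc1, a lysosomal cholesterol transporter, rose by 1.54 ± 0.14 against TdLN, and Stard5, a sterol-binding protein, by 1.15 ± 0.11 against NdLN. Nr1h3, the gene of the oxysterol receptor LXR-alpha, fell to 9.60 ± 1.23 CPM in Tumor libraries, against 37.6 ± 4.24 in TdLN and 42.7 ± 6.95 in NdLN libraries (-1.97 ± 0.14 against TdLN).

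Of 6 redox partners 3 rose and 2 fell in Tumor libraries against each node, a count too small to set apart from the shares over all genes. Fdxr, which feeds electrons to mitochondrial P450 enzymes such as CYP27A1, rose by 0.85 ± 0.14 against TdLN while Cyp27a1 fell, and Cyb5a had a log2 fold change of -0.70 ± 0.12. Later steps towards bile acids had 4 tested genes of 9, with Hsd17b4 (-0.57 ± 0.06) and Scp2 (-0.61 ± 0.10) lower and Amacr (0.78 ± 0.15) higher against TdLN. Among 8 tested genes of ester and epoxide handling, Dhcr7 (2.31 ± 0.20) and Ebp (0.57 ± 0.12), enzymes of late cholesterol synthesis, rose and Nceh1 (-1.35 ± 0.19), a cholesterol ester hydrolase, fell against TdLN. Of the other P450 genes Cyp51 (2.66 ± 0.23) rose and Cyp8b1 (-1.48 ± 0.30) fell. Cyp11a1, the side-chain cleavage enzyme, also passed but was at only 0.564 ± 0.314 CPM in Tumor libraries, its node levels were near the limit of detection, and the call against TdLN was lost in DESeq2 (adjusted p = 0.0595) and without most single libraries.

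**Figure D5:**
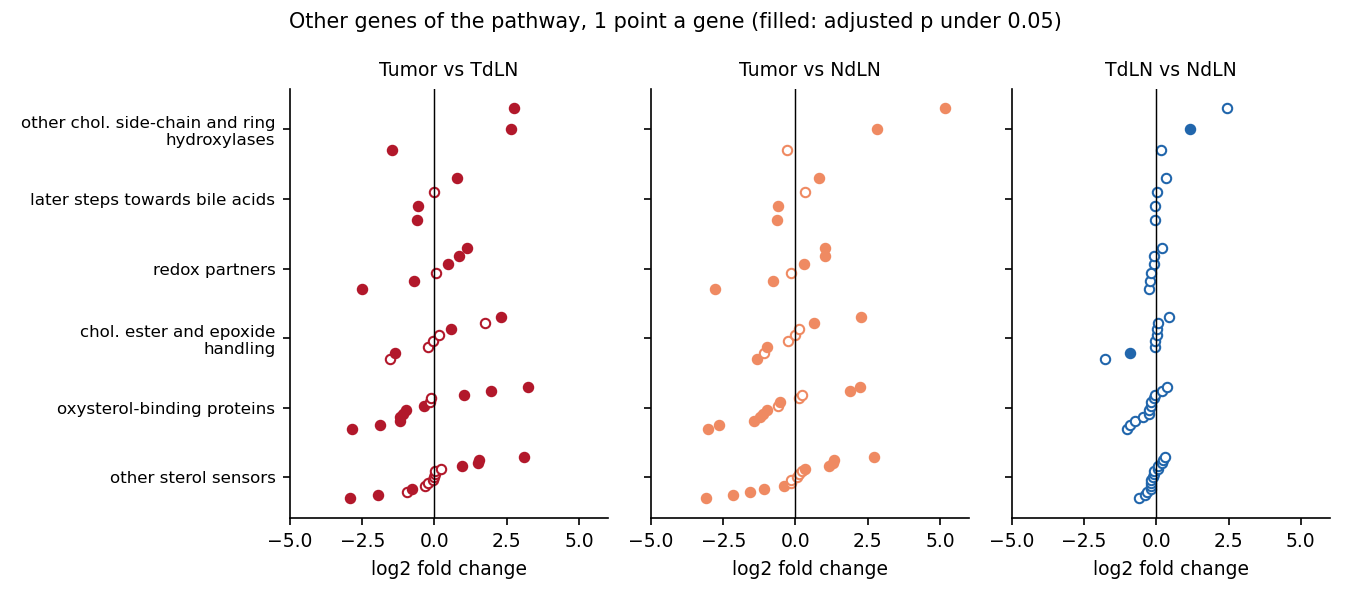
Log2 fold change (horizontal axis) of the 48 tested genes of the wider pathway in the 3 comparisons, first group over second, 1 point per gene in 6 lists, with filled points at an adjusted p under 0.05. Between the nodes 2 points are filled (Cyp8b1 and Ephx1), while in the tumor comparisons filled points lie on both sides of 0.

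Genes with the most similar profile were found among 11526 protein-coding genes by the root mean square difference of log2 CPM over the 15 libraries, after centring each gene on its mean, where 0 would be an identical profile. Nearest to Ch25h were Pik3ip1 (0.38), Sdc2 (0.39) and Filip1 (0.40), which share its order of Tumor, NdLN and TdLN, with Sdc2 at 64.4 CPM in Tumor, 22.6 in TdLN and 39.1 in NdLN libraries. Nearest to Hsd11b1 were Gstp1 (0.20), Ss18l2 (0.26) and S100a1 (0.27), and to Soat1 Got2 (0.20), Pfkp (0.22) and S1pr2 (0.22). Nearest to Sult2b1 was Nrros (0.36), then Gpr182 and Cxcl16 (0.48 each). Hsd3b7 was nearest to Plod3 and Plec (0.15 each) and Agpat4 (0.16), Cyp39a1 to Alkbh7 and Uqcrc2 (0.13 each) and Echs1 (0.14), and Cyp7b1 to Lbx2 and Il1r1 (0.41 each) and Cpxm1 (0.47). Gpr183 had no close neighbour, the nearest being Ndrg2 (0.74), Alpl (0.79) and Tuba4a (0.81), and Cyp27a1 was nearest to Svip (0.57), Fgfr3 (0.86) and Lrg1 (0.92). Among the 9 genes themselves the closest pair was Cyp39a1 and Soat1 (0.57).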

How the data were processed

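RNA of sorted cells was amplified from 1 ng with a low-input kit and 200 pg of cDNA entered a transposase-based preparation, read as single reads of 50 bases in pools of 10 libraries, per the labels' protocols. Which library was in which pool is not stated. The authors deposited raw counts per gene for 15 libraries, made with CASAVA 1.8.2, STAR 2.4 and featureCounts 1.4.6 on GRCm38, per the submitters' processing notes. Strand setting and annotation: not given in the sources used here. IDs were named from GENCODE M21 (21628 of 21839, the other 211 with 0.0859% of counts). Differences were tested in 1 fit of all libraries with edgeR 4.0.16 in R 4.3.3 (filterByExpr, TMM, robust glmQLFit and glmQLFTest), called at a Benjamini-Hochberg adjusted p under 0.05 over 13887 genes. The test was also run on counts simulated for the node libraries alone. There it recovered 19.4% of 1.5-fold, 49.3% of 2-fold and 84.8% of 4-fold changes, with 4 false calls, so smaller differences between the nodes are often missed. Log2 CPM for profiles used a prior count of 2. DESeq2 1.42.0, RLE and upper quartile factors, other filters, a replicate block, fits of the compared groups and each library left out were the alternatives. The named genes are the 9, up to 3 called genes with the smallest p of each wider list and comparison, the 3 nearest profiles of each (average log2 CPM of at least 1) and 6 checks of sort and labels, of which the text gives part. Members and lists were chosen with earlier results of these data known. Libraries of 1 group differed beyond sampling noise (lowest mean chi-square per gene 28.3), so none was counted as a duplicate. Reads were amplified and carry no molecular identifier, so limits cover counting error only. Figures used matplotlib 3.10.9.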

Additional observations from a re-analysis of the deposited data

Results flagged for a closer look

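In 105 combinations of a named gene and a group of 5 libraries, 6 had 1 library far from the other 4, and chance gives about 1 in 20. None was one of the 9 oxysterol genes. H6pd was at 61.2 CPM in Tumor 2, apart from the other Tumor libraries, and Ephx1 at 517 CPM in NdLN 2. Prox1 was low in NdLN 1, at 674 CPM, and Pdpn in TdLN 4, at 93.6 CPM. Cyp11a1 stood out at 0.310 CPM in TdLN 4 and 0.0579 CPM in NdLN 2, levels near the limit of detection.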

How the results depend on the processing

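Of 453 values for the 9 genes under the alternatives, 444 kept their direction and their side of the threshold. Gpr183 between the nodes passed in DESeq2, and Cyp7b1 in Tumor against NdLN lost its call in 6 fits, both as given above, and the cause was not tested. Between the nodes 2 differences that did not pass changed sign, Cyp39a1 (-0.11 to 0.03 with 1 library left out, positive without NdLN 1) and Hsd11b1 (-0.15 to 0.06, positive without TdLN 1). DESeq2 called 978 genes and 2 of the 9 between the nodes, against 484 and 1. Leaving out 1 library gave 225 to 564 called genes between the nodes, where the fit of only those 10 libraries called 270 higher and 428 lower. With the stricter filter, a CPM of at least 10 in 5 libraries, 7 of the 9 genes were tested, and Sult2b1 and Gpr183 were not. The replicate block gave 400 called genes and 1 of the 9 between the nodes and changed no call of the 9 in any comparison. With it Cyp8b1 between the nodes (1.22 ± 0.35, adjusted p = 0.0963) and Cyp11a1 in Tumor against TdLN (adjusted p = 0.0537) were no longer called. The labels do not say that libraries with the same number share a source. Same-numbered libraries had correlations of deviations from -0.21 to 0.25, over 0.1 in 4 of 15 pairs. Of 30 library and group pairs, 7 correlated best with their own number. Such correlations between different tissues cannot show whether same-numbered libraries came from the same animals. Applied to the named genes of the wider lists after the data were seen, the same alternatives ended the calls given above of Cyp8b1 and Ephx1 between the nodes and of Cyp11a1 in Tumor against TdLN. Scaling factors moved the median over all genes by less than 0.1. Depth limits Gpr183 in the nodes and Sult2b1 and Cyp27a1 in the tumor, which had 0 to 83 counts a library.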
